A study of Mus musculus with 6 samples.

Results

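The data described here are those of 10 mouse enzymes of arginine and tryptophan metabolism: Arg1, Arg2, Nos2, Ass1, Odc1, Haao, Kmo, Kynu, Ido1 and Il4i1. They were taken by gene symbol, as every probe set whose platform annotation held that symbol alone, which gave 14 probe sets for 10 of the 18193 genes so named on the array. The genes were chosen by their symbols with their signals in Ly6G+ DC and Ly6G- DC already known, so those signals are given as a description. How many of the genes were called in the fit over all genes is given beside the share of all genes called, and nothing is read from it. A pair of further probe sets, annotated to Ass1 and Gm5424 and to Il4i1 and Il4i1b, carried more than 1 symbol and were not used.

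The 6 samples were dendritic cells (DC), 3 sorted as Ly6G+ and 3 sorted as Ly6G-, with 1 Affymetrix array each. Both populations came from crude bone marrow of C57BL/6 mice cultured with 10 ng/ml GM-CSF, a growth factor that yields dendritic cells in culture, and were sorted on day 6. All sorted cells carried CD11c and MHC class II, and the populations differed in the sort for Ly6G, a surface protein typical of neutrophils. The labels give no age or sex of the mice, no sort purity, and nothing on whether the 3 samples in each group were grown from different animals or cultures, so the spread between samples may be technical.

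Arginine is a branch point in myeloid cells. Arginases split it into ornithine and urea, ornithine feeds polyamine and proline synthesis, and the inducible nitric oxide synthase turns the same substrate into nitric oxide and citrulline. Tryptophan is opened by indoleamine dioxygenases and passes through kynurenine toward quinolinic acid and NAD, and depletion of either amino acid by dendritic cells and macrophages is known to restrain T cells.

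H2-Aa, an MHC class II gene of the sort, was bright on every array, with signals of 14475 to 62040 in Ly6G+ DC and 22344 to 120546 in Ly6G- DC, while neutrophil genes separated the groups. All 11 kept markers of neutrophils had higher signals on every Ly6G+ DC array, as did 4.95% of all kept genes. The neutrophil list sums were 67977 to 91818 in Ly6G+ DC and 2327 to 13174 in Ly6G- DC. All 9 kept markers of conventional dendritic cells had negative log2 fold changes, with list sums of 66601 to 137765 in Ly6G+ DC and 104174 to 246285 in Ly6G- DC. No gene of either list was at 0 on any array. Ly6g itself has 0 probe sets in the annotation used and was not checked. Transcripts spiked in before hybridization had geometric mean signals of 6688 on Ly6G+ DC 2 and 12321 and 12842 on Ly6G- DC 2 and 3, against 1529 to 2039 on the other 3 arrays, and Actb had 3' signals 3.98 to 6.85 times its 5' signals on the first 3 and 1.17 to 1.49 times on the rest. These are called the high and the low side, and each side holds a single array of 1 of the groups and 2 of the other group.

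Across the enzymes, the mitochondrial arginase Arg2 had a higher and the kynurenine pathway enzyme Haao a lower mean signal in Ly6G+ DC, both by more than either group's SD. Arg1 also differed by more than either SD, with groups that overlapped, as did those of the brighter Arg2 probe set. Odc1 had 1 of 3 probe sets without overlap, its dimmest, and the 6 genes Nos2, Ass1, Kmo, Kynu, Ido1 and Il4i1 overlapped with every probe set. Of 9 genes with a probe set kept after the filter on dim signals, 1 (Haao) had groups that did not overlap, beside 12.8% of all 13262 kept genes, 4.95% as higher and 7.86% as lower in Ly6G+ DC. The share among the enzymes was 11.1%, close to that background. The median log2 fold change was -0.01 over the 9 genes and -0.07 over all genes, with 4 enzymes positive and 5 negative. limma's fit of the group alone called 0 of 13262 genes at an adjusted p under 0.05 (0% in the background), with 915 at an unadjusted p under 0.05, and 0 of the enzymes. With the hybridization controls' side as a block it called 0.0679% of genes and 0 of the enzymes. Log2 fold changes are differences of mean log2(signal + 16), Ly6G+ DC over Ly6G- DC, a scale that understates differences of dim genes. Their errors are standard errors (SE) from limma, fitted over all kept probe sets for the 10 enzymes and over all kept genes for the genes of other lists. In these sorted populations, fewer cells of a type and less RNA per cell cannot be told apart.

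**Figure D1:**
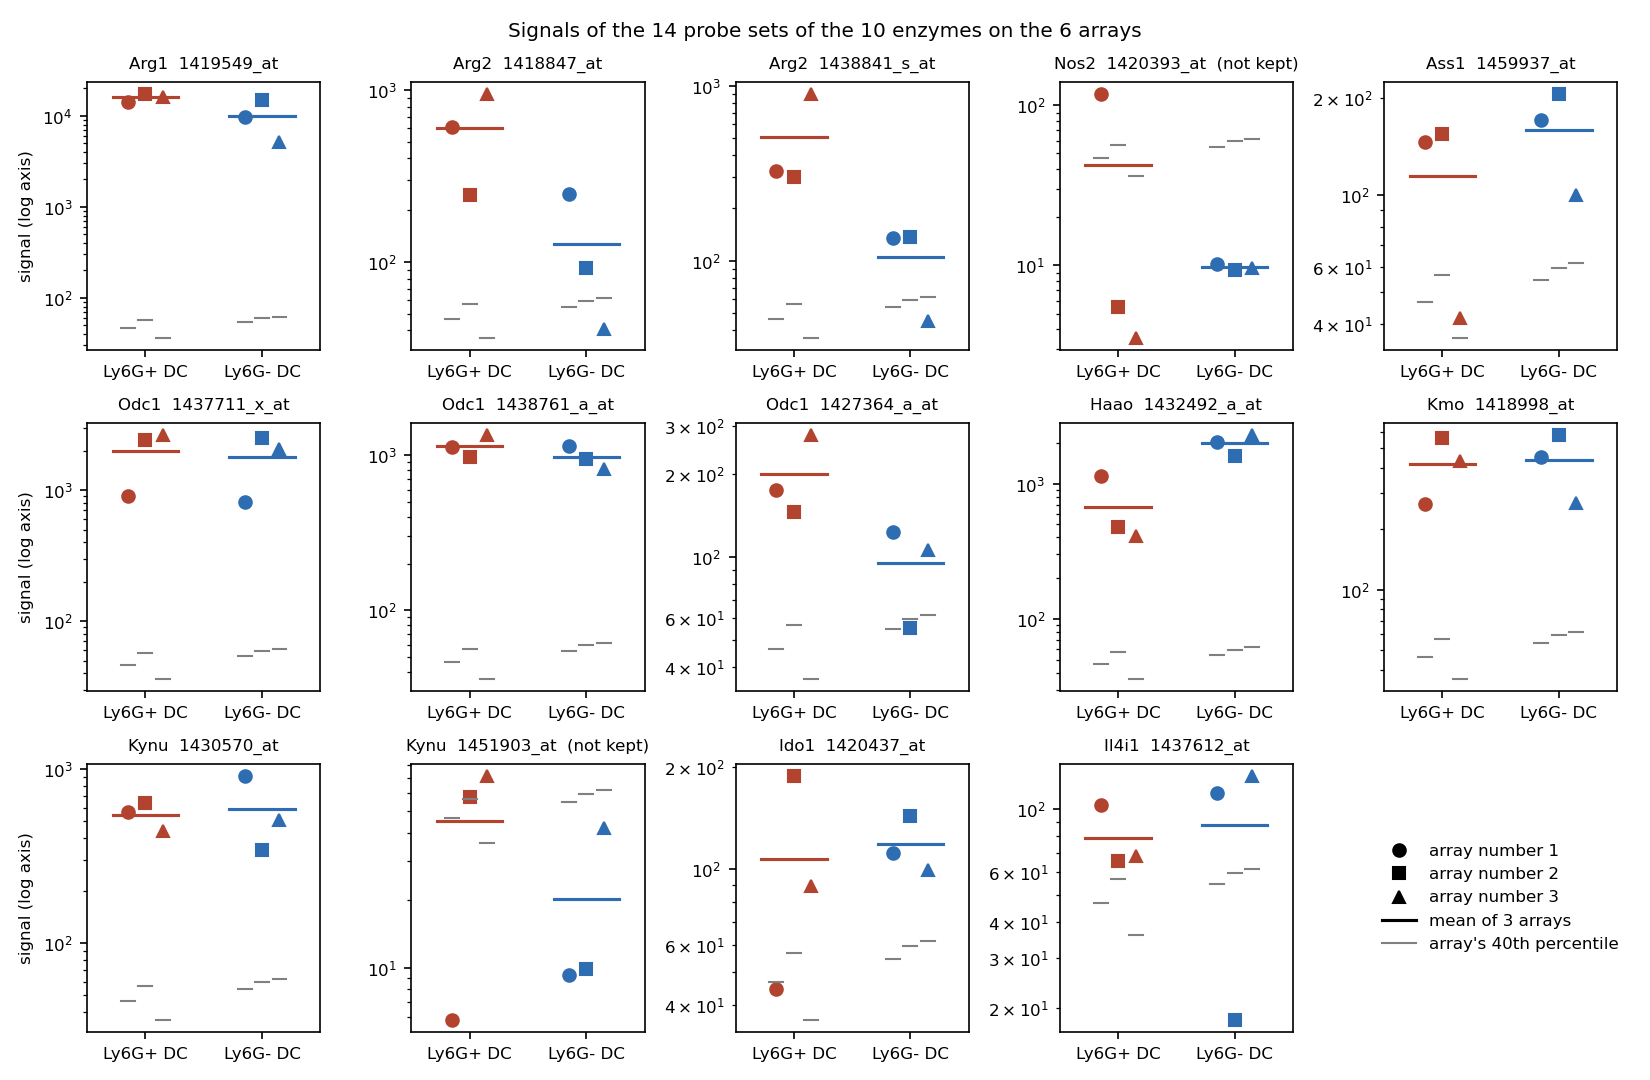
Signals of the 14 probe sets (log axes, each panel with its own range) on the 3 Ly6G+ DC and 3 Ly6G- DC arrays, with symbols for array numbers, coloured lines for group means and short grey lines for each array's 40th percentile of signal. Haao is lower on all 3 Ly6G+ DC arrays, both Arg2 probe sets have higher means in Ly6G+ DC, and Nos2 is above the 40th percentile on 1 array.

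Arg1, the cytosolic arginase and a marker of alternatively activated macrophages, was bright on all 6 arrays. Its signals were 14115, 17470 and 16134 on Ly6G+ DC 1, 2 and 3, against 9628, 14878 and 5173 on Ly6G- DC 1, 2 and 3. The 3 Ly6G+ DC arrays lay close together, while the Ly6G- DC arrays were spread and Ly6G- DC 2 exceeded Ly6G+ DC 1. Ly6G+ DC averaged 15906 ± 1689 and Ly6G- DC 9893 ± 4858 (SD, n = 3 each), with a log2 fold change of 0.81 ± 0.43 (SE). The difference rested partly on Ly6G- DC 3, without which it was 0.40. It was 0.65 among low-side and 0.99 among high-side arrays. With arrays scaled to a common median, or quantile normalized, the groups of Arg1 did not overlap, where 13.8% and 12.0% of all genes did not, and its log2 fold changes were 1.14 and 0.91. The common median moved the median over all genes by 0.30, most of the shift seen for Arg1.

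Arg2, the mitochondrial arginase, was measured by a pair of probe sets. The brighter, 1418847_at, had signals of 607, 245 and 951 on Ly6G+ DC 1, 2 and 3, against 248, 91.8 and 40.6 on Ly6G- DC 1, 2 and 3. The groups met at a single point, where Ly6G+ DC 2 lay just under Ly6G- DC 1, and Ly6G- DC 3 lay under that array's 40th percentile of 61.7. Ly6G+ DC averaged 601 ± 353 and Ly6G- DC 127 ± 108 (SD, n = 3 each), with a log2 fold change of 2.20 ± 0.61 (SE), a 4.60-fold difference.

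The other Arg2 probe set, 1438841_s_at, carries the suffix of sets whose probes match several transcripts. It had signals of 327, 302 and 898 on Ly6G+ DC 1, 2 and 3, against 135, 137 and 45.1 on Ly6G- DC 1, 2 and 3. Here every Ly6G+ DC array was above every Ly6G- DC array, where 4.49% of all kept probe sets were higher, 7.24% lower and 11.7% either way without overlap, and the log2 fold change was 2.05 ± 0.51 (SE). Both probe sets were highest on Ly6G+ DC 3 and lowest on Ly6G- DC 3, and their log2 signals correlated with Pearson's r = 0.93 over the 6 arrays as a description. The neutrophil list sum was also highest on Ly6G+ DC 3 and lowest on Ly6G- DC 3, but the order of the sums differed on other arrays. On Ly6G- DC 1 and 2 the sums were 6265 and 13174. There the brighter Arg2 probe set had 248 and 91.8, and 1438841_s_at had 135 and 137. On Ly6G+ DC 1 and 2 the sums were 67977 and 68715. There the brighter probe set had 607 and 245, and 1438841_s_at had 327 and 302. A mean of log2 signals, with each of the 11 neutrophil genes centred on its own mean over the 6 arrays, gave another order. It was 1.75, 1.23 and 2.12 on Ly6G+ DC 1, 2 and 3, against -1.79, -0.60 and -2.72 on Ly6G- DC 1, 2 and 3. That is the array order of 1438841_s_at, while the brighter probe set departed from it on Ly6G- DC 1. The part of the neutrophil list in the difference of Arg2 was not tested.

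The Arg2 difference was also present within each side of the hybridization controls. For 1418847_at it came to 1.56 among low-side arrays and 1.74 among high-side arrays, and with the side as a block it was 1.65 ± 0.36 (SE). The sample titles carry one array name for number 1 and another for numbers 2 and 3, and by that name it was 1.24 for number 1 and 2.68 for the others. The direction was the same in all of these subsets, and the size was larger among numbers 2 and 3. Without Ly6G- DC 3 the log2 fold change was 1.68, and without Ly6G- DC 1, the array on which the groups met, it was 2.79.

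Nos2, the inducible nitric oxide synthase, did not pass the filter. Its signals were 118, 5.47 and 3.51 on Ly6G+ DC 1, 2 and 3, against 10.3, 9.38 and 9.67 on Ly6G- DC 1, 2 and 3. Only Ly6G+ DC 1 lay above its array's 40th percentile (46.6), and the other 5 arrays were under theirs, so no fold change is given. A single array among 3 of a group supports no statement on Nos2 in Ly6G+ DC.

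Ass1, argininosuccinate synthase, which returns citrulline toward arginine, had low signals that overlapped between groups. Its signals were 147, 155 and 41.6 on Ly6G+ DC 1, 2 and 3, against 171, 207 and 100.1 on Ly6G- DC 1, 2 and 3. Number 3 was the lowest array in each group. The log2 fold change was -0.53 ± 0.50 (SE), and without Ly6G+ DC 3 it was -0.02. It was -0.95 among low-side and 0.09 among high-side arrays.

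Odc1, ornithine decarboxylase, which makes the polyamine putrescine from ornithine, had 3 probe sets with different patterns. The brightest, 1437711_x_at, carries the suffix of sets with probes close to other sequences, and had 899, 2429 and 2651 on Ly6G+ DC 1, 2 and 3, against 818, 2497 and 2074 on Ly6G- DC 1, 2 and 3. Both number 1 arrays were low and the other 4 high, so this probe set followed the array name and not the sort, and its log2 fold change was 0.15 ± 0.51 (SE). The set 1438761_a_at was even across all arrays, between 979 and 1354 in Ly6G+ DC and between 819 and 1138 in Ly6G- DC, with a log2 fold change of 0.25 ± 0.29. The dimmest, 1427364_a_at, did not overlap, with 175, 145 and 278 on Ly6G+ DC 1, 2 and 3, against 123, 55.5 and 106 on Ly6G- DC 1, 2 and 3. Of all kept probe sets 11.7% did not overlap, and the signal on Ly6G- DC 2 was under that array's 40th percentile of 59.5. The log2 fold change of 1427364_a_at was 0.97 ± 0.41 (SE), with 0.77 among low-side and 0.79 among high-side arrays. Its log2 signals correlated with those of 1437711_x_at at r = -0.08 and with those of 1438761_a_at at r = 0.73 over the 6 arrays, again as a description.

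Haao, 3-hydroxyanthranilate dioxygenase, makes the precursor of quinolinic acid on the way from tryptophan to NAD. Its signals were 1137, 482 and 409 on Ly6G+ DC 1, 2 and 3, against 2043, 1597 and 2292 on Ly6G- DC 1, 2 and 3. The groups did not overlap, all 6 signals were well above the 40th percentiles (36.0 to 61.7), and Ly6G+ DC 1 was the nearest to the Ly6G- DC arrays. Ly6G+ DC averaged 676 ± 401 and Ly6G- DC 1977 ± 352 (SD, n = 3 each), with a log2 fold change of -1.66 ± 0.39 (SE), or 3.15-fold lower in Ly6G+ DC. Of all kept genes, 34 had a more negative log2 fold change.

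Since the groups of Haao did not overlap, its direction is the same in any subset of the arrays, and only the size can differ. The difference was -1.56 (log2) among low-side arrays and -1.95 among high-side arrays, and -1.75 ± 0.38 (SE) with the side as a block. It was -0.84 for array number 1, a single pair of arrays, and -2.07 for the others. Leaving out 1 array at a time gave -2.10 to -1.38. The conventional dendritic cell markers had lower means in Ly6G+ DC. On the low side their sums were 85298 and 66601 on Ly6G+ DC 1 and 3, against 104174 on Ly6G- DC 1. On the high side they were 137765 on Ly6G+ DC 2, against 217687 and 246285 on Ly6G- DC 2 and 3. Over all 6 arrays the sums overlapped, as did 3 of the 9 markers, Cd74, H2-Aa and Itgax. H2-Aa alone made up 62040 of the sum on Ly6G+ DC 2 and 22344 of that on Ly6G- DC 1. The mean log2 signal of the 9 markers, each centred on its own mean over the 6 arrays, did not overlap. It was -0.37, -0.20 and -0.83 on Ly6G+ DC 1, 2 and 3, against 0.17, 0.43 and 0.80 on Ly6G- DC 1, 2 and 3. Among the 6 markers that did not overlap, beside 12.8% of all genes, was Flt3, a growth factor receptor of dendritic cells, at -1.86 ± 0.43. Irf8, a transcription factor of that lineage, was another, at -1.01 ± 0.33, and the markers' part in the difference of Haao was not tested.

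**Figure D2:**
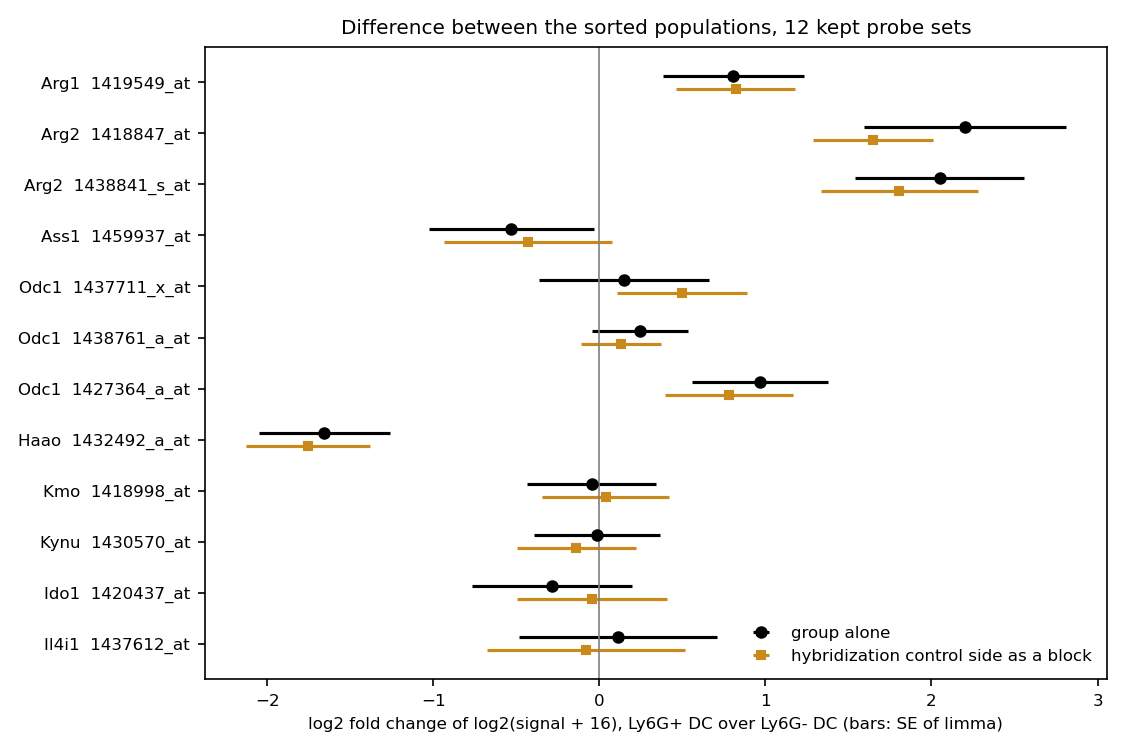
Log2 fold changes (Ly6G+ DC over Ly6G- DC) of the 12 kept probe sets with SE bars from limma, from the group alone (circles) and with a block for the side of the hybridization controls (squares). Both Arg2 probe sets lie right of 0 and Haao lies left of 0 in both fits, while Kmo, Kynu, Ido1 and Il4i1 have bars that reach over 0.

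Ido1, Kmo and Kynu, which act before Haao in the pathway, had groups that overlapped, and whether their differences differ from that of Haao was not tested. Ido1, indoleamine dioxygenase, the first enzyme of the pathway and a known marker of regulatory dendritic cells, was dim, with 44.4, 188 and 89.2 on Ly6G+ DC 1, 2 and 3, against 112, 144 and 99.4 on Ly6G- DC 1, 2 and 3. The Ly6G+ DC arrays held both the highest and the lowest value, and the lowest was under its array's 40th percentile. Its log2 fold change was -0.29 ± 0.48 (SE), with -0.68 among low-side and 0.59 among high-side arrays.

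Kmo, kynurenine monooxygenase, which forms 3-hydroxykynurenine, had signals of 265, 562 and 431 on Ly6G+ DC 1, 2 and 3, against 455, 583 and 269 on Ly6G- DC 1, 2 and 3. The ranges were nearly the same, with number 2 highest in each group. The log2 fold change was -0.05 ± 0.39 (SE), with -0.41 among low-side and 0.49 among high-side arrays.

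Kynu, kynureninase, which forms the substrate of Haao, had 566, 635 and 438 on Ly6G+ DC 1, 2 and 3 with the kept probe set 1430570_at, against 915, 343 and 513 on Ly6G- DC 1, 2 and 3. The Ly6G+ DC values lay inside the Ly6G- DC range, with a log2 fold change of -0.01 ± 0.38 (SE). Within the sides its differences were larger and opposite, -0.86 among low-side and 0.58 among high-side arrays, and for array number 1 it was -0.68. Its second probe set, 1451903_at, passed the 40th percentile on 2 of 6 arrays and was left out of the fits, with signals of 5.82 to 71.9 in Ly6G+ DC and 9.26 to 41.9 in Ly6G- DC. For Kmo and Kynu, scaling to a common median turned the sign, to 0.27 and 0.31, but this scaling moved the median over all genes by 0.30.

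Il4i1, a secreted oxidase of phenylalanine and tryptophan, was dim with the probe set annotated to it alone. Its signals were 103, 65.8 and 68.3 on Ly6G+ DC 1, 2 and 3, against 114, 18.1 and 131 on Ly6G- DC 1, 2 and 3. The Ly6G- DC arrays spanned the whole range, with Ly6G- DC 2 under its array's 40th percentile of 59.5. The log2 fold change was 0.11 ± 0.59 (SE), and without Ly6G- DC 2 it was -0.56.

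**Figure D3:**
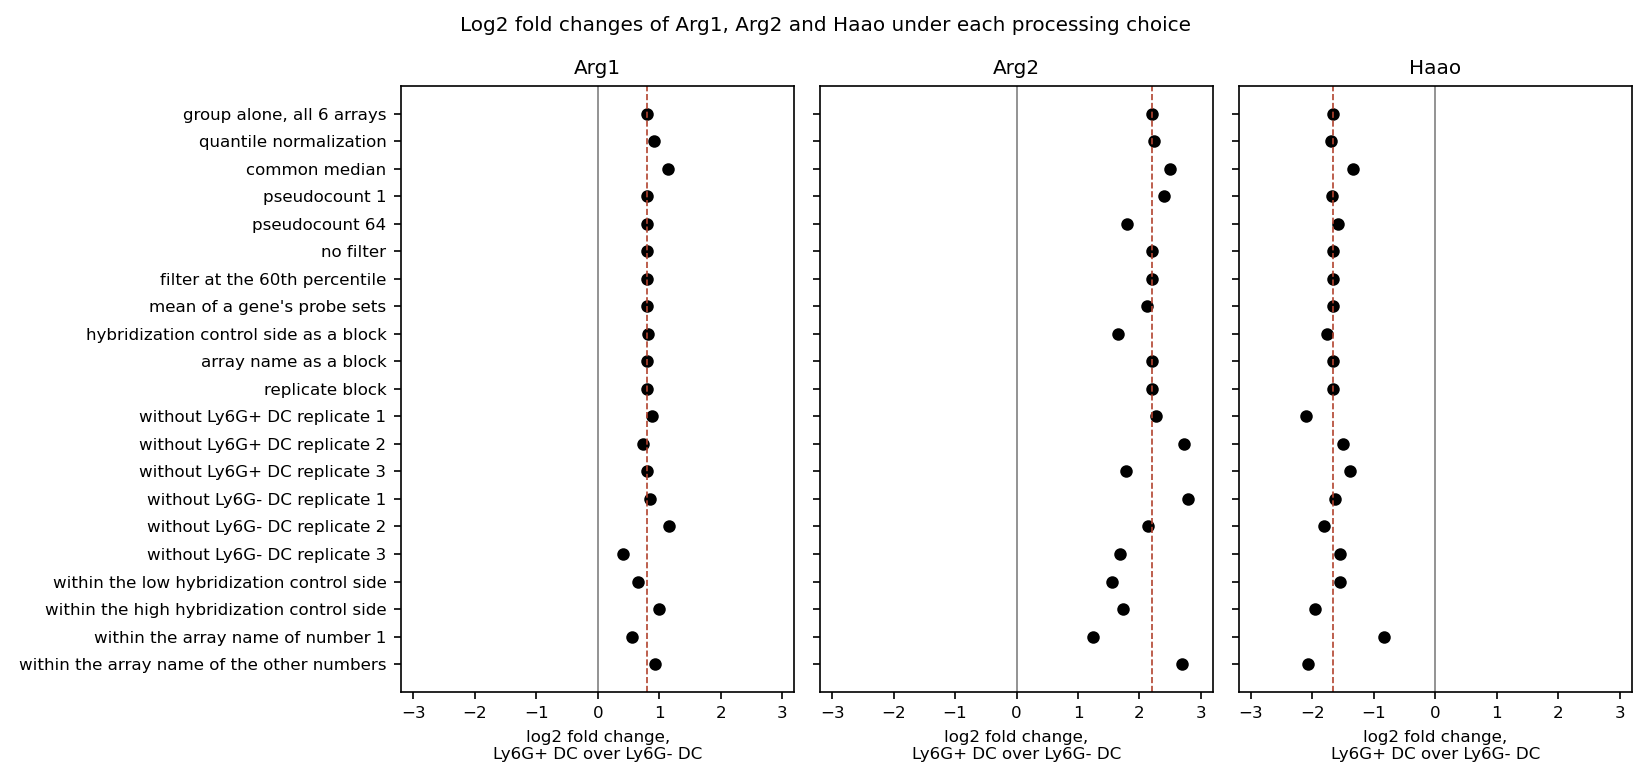
Log2 fold changes (Ly6G+ DC over Ly6G- DC) of Arg1, Arg2 and Haao under each processing choice, with a dashed line at the value from the group alone and all 6 arrays. Arg1 lies between 0.40 and 1.16, Arg2 between 1.24 and 2.79 and Haao between -2.10 and -0.84, each on 1 side of 0.

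The genes whose log2 signals followed those of Arg2 most closely over the 6 arrays were Pygl, a glycogen phosphorylase, AB124611 and Ugdh, which makes UDP-glucuronate, with r = 0.995, 0.994 and 0.994. For Haao they were Chga, chromogranin A, Btla, an inhibitory lymphocyte receptor, and Cryba2, a crystallin, with r = 0.994, 0.993 and 0.991. With so few arrays many genes share a pattern, and 161 genes (1.21%) reached r of 0.95 with Arg2 and 77 (0.58%) with Haao.

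Neighbouring genes of these pathways were described from lists, and 0 of their genes passed limma's test in either direction (0% of all genes). Of 13 kept genes of arginine transport and the urea cycle, 1 was higher and 2 were lower on every Ly6G+ DC array, with a median log2 fold change of -0.15. The higher one was Slc25a15, the mitochondrial ornithine carrier, with signals of 348, 387 and 521 on Ly6G+ DC 1, 2 and 3, against 231, 305 and 129 on Ly6G- DC 1, 2 and 3, a log2 fold change of 0.92 ± 0.35 (SE). The lower ones were the cationic amino acid transporter Slc7a3 at -1.05 ± 0.37 and Nags, which makes the activator of the urea cycle, at -0.50 ± 0.34. The brightest of the list were the arginine transporter Slc7a2 at 0.74 ± 0.41 and Slc3a2, the heavy chain of amino acid transporters, at -0.15 ± 0.35, and both overlapped.

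Of 10 kept genes of nitric oxide synthases and their cofactor tetrahydrobiopterin, 1 did not overlap (10%, beside 12.8% of all genes). The list's median was -0.32, and the gene was Nostrin, a nitric oxide synthase trafficking protein, at -0.21 ± 0.26 (SE). The brightest, Qdpr and Pts, which recycle and make tetrahydrobiopterin, had -0.42 ± 0.39 and 0.59 ± 0.33. Of 17 genes of polyamine and proline metabolism, 1 was higher and 1 lower without overlap (11.8%), with a median of 0.00. Azin1, which frees ornithine decarboxylase from its inhibitor, had 0.36 ± 0.27, and Srm, spermidine synthase, had -0.61 ± 0.30. The brightest, Eif5a, whose protein carries a residue made from spermidine, and Oaz1, the antizyme that inhibits Odc1, had 0.00 ± 0.32 and -0.16 ± 0.33.

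For 13 kept genes of the kynurenine pathway and NAD synthesis beside the 10 enzymes, the median was -0.24. Where 7.86% of all genes were lower without overlap and 12.8% either way, this list had 2 lower (15.4%) and 0 higher. They were Tdo2, tryptophan dioxygenase, at -0.60 ± 0.44 (SE), with dim signals of 48.3 to 52.1 in Ly6G+ DC and 64.4 to 102 in Ly6G- DC, and Nmnat1, an enzyme of the last steps to NAD, at -0.56 ± 0.37. The brightest were Got2, an aminotransferase, at -0.24 ± 0.28 and Nmnat3 at -0.42 ± 0.32. Of 14 genes of the aryl hydrocarbon receptor, which binds kynurenine, and of the amino acid starvation response, 1 (7.14%) did not overlap. It was Tiparp, a target of the aryl hydrocarbon receptor, at 0.45 ± 0.28. The starvation factor Atf4 had -0.50 ± 0.56 and was brighter on the high side in both groups, with 5406 on Ly6G+ DC 2 and 5424 and 6557 on Ly6G- DC 2 and 3, against 1516 to 2583 on the other 3 arrays.

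Among 19 regulators known to act on these enzymes or on myeloid activation, 3 were higher and 1 lower without overlap. This was 21.1% of them, beside 12.8% of all genes, and their median was -0.00. Cebpb, a transcription factor that acts on Arg1 in macrophages, had signals of 8822, 7584 and 11300 on Ly6G+ DC 1, 2 and 3, against 5776, 7102 and 3668 on Ly6G- DC 1, 2 and 3, a log2 fold change of 0.77 ± 0.36 (SE). Cebpd, of the same family, had 0.89 ± 0.28, and the interferon gamma receptor chain Ifngr1 had 0.47 ± 0.28. The lower gene was Irf8, with 2903, 3198 and 2453 on Ly6G+ DC 1, 2 and 3, against 5751, 4088 and 8023 on Ly6G- DC 1, 2 and 3. Socs3, the other of the brightest regulators, a feedback inhibitor of cytokine signalling, overlapped at 0.28 ± 0.52.

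**Figure D4:**
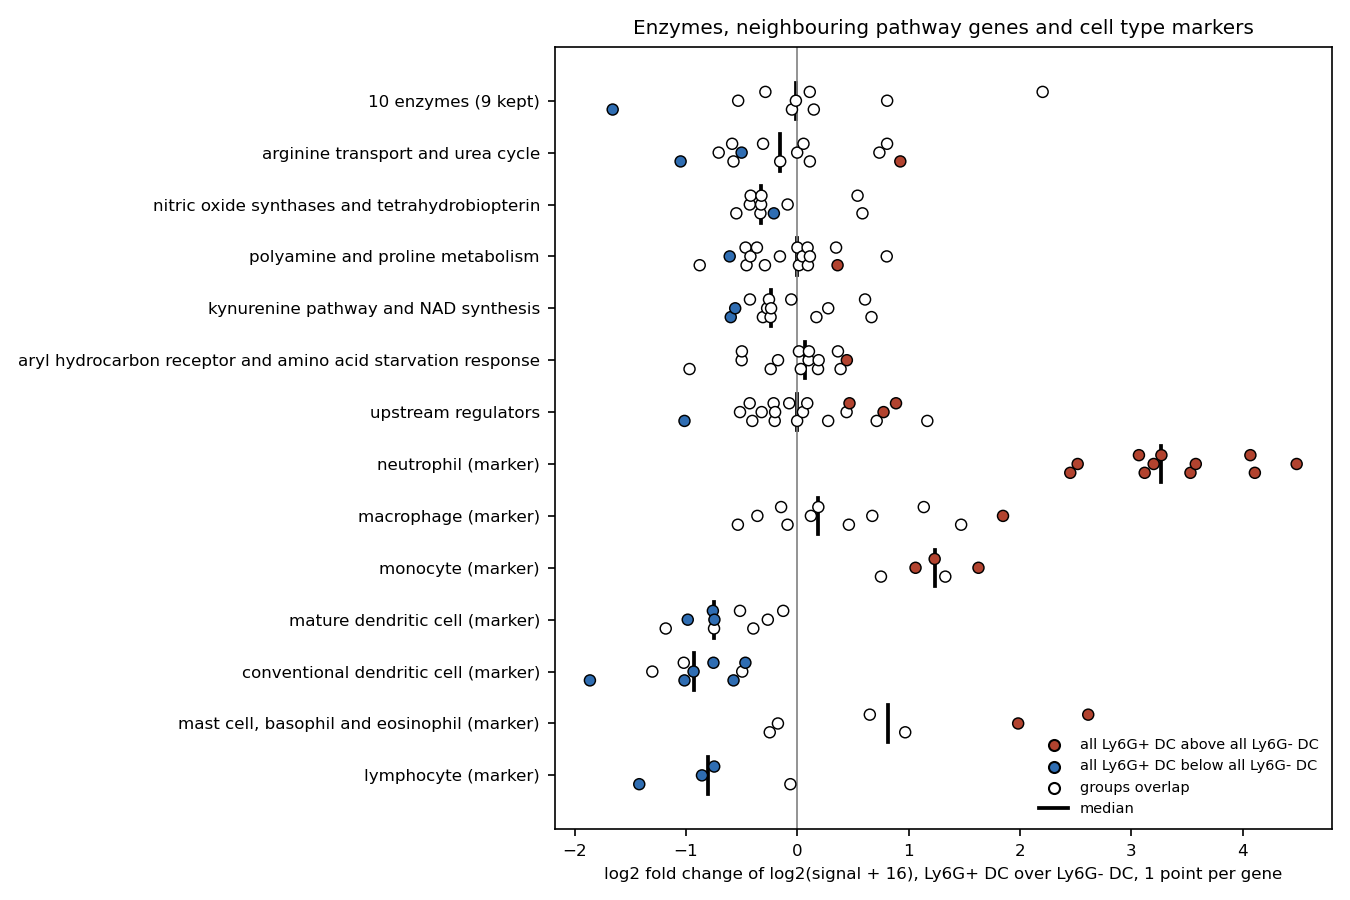
Log2 fold changes (Ly6G+ DC over Ly6G- DC), 1 point per kept gene, for the enzymes, 6 pathway lists and 7 marker lists, with the median of each list as a black bar and filled points where the groups do not overlap. The pathway lists have medians between -0.32 and 0.07. The 11 neutrophil markers lie between 2.45 and 4.48, and the 9 conventional dendritic cell markers lie between -1.86 and -0.47.

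Markers of further cell types moved with the sort in part, where 12.8% of all genes did not overlap. Of 11 kept macrophage genes, 7 were positive and 1, Chil3, a chitinase-like protein, did not overlap, at 1.85 ± 0.45 (SE), with Mrc1, the mannose receptor, at 1.47 ± 0.65. The other 4 of the 11 were negative, and the list's median was 0.19. The list's summed signals were 34108 to 46372 in Ly6G+ DC and 19837 to 36333 in Ly6G- DC, which overlapped. Chil3 alone made up 14731 to 21671 of the sums in Ly6G+ DC and 3037 to 9678 in Ly6G- DC. The macrophage sum was lowest on Ly6G- DC 3, the array lowest in Arg1. The neutrophil (2327), monocyte (4095) and mast cell, basophil and eosinophil (1219) sums were also lowest there. The part of any of these lists in the difference of Arg1 was not tested. All 5 kept monocyte genes were positive, 3 of them without overlap. Plac8 had 1.63 ± 0.41, F13a1 1.33 ± 0.57 and Fn1, the brightest, 0.75 ± 0.43, and F13a1 and Fn1 overlapped. The monocyte sums were 13152 to 17642 in Ly6G+ DC and 4095 to 12610 in Ly6G- DC. Of 6 mast cell, basophil and eosinophil genes, 4 were positive and 2, Gata2 at -0.25 ± 0.29 and Kit at -0.17 ± 0.35, negative. Prg2 and Epx, both of eosinophil granules, did not overlap, at 2.61 ± 0.52 and 1.98 ± 0.63, and the other 4 overlapped. All 9 mature dendritic cell genes were negative, 3 of them without overlap. Fscn1, which overlapped, had -1.18 ± 0.63 and Ccr7 had -0.98 ± 0.36. With the hybridization controls' side as a block these were -0.62 and -1.05. All 4 lymphocyte genes were negative, 3 of them without overlap. Zap70 had -1.42 ± 0.49 and Klrd1 -0.86 ± 0.32, while Cd79a, which overlapped, had -0.06 ± 0.56. Lcn2, Camp and S100a8 of the neutrophil list had 4.48 ± 0.65, 4.11 ± 0.64 and 3.53 ± 0.51. H2-Aa, a conventional dendritic cell gene whose groups overlapped, had -1.30 ± 0.74, and -0.61 with the side as a block.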

How the data were processed

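RNA of 6 sorted samples was measured on Affymetrix mouse arrays. The authors deposited 1 linear signal intensity for each probe set and array, and each array's mean after trimming 2% at either end was 250.0. Per the submitters' processing notes MAS5, GCOS and Affymetrix Expression Console 2.0 were used, with further steps not given in the sources used here. Because MAS5 corrects by mismatch probes, low signals are noisy. The table held 45101 probe sets, of which 34958 had 1 gene symbol in the platform annotation, 932 several and 9211 none.

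Signals were analysed as log2(signal + 16). Kept were probe sets whose signal exceeded the 40th percentile of the array on 3 or more of the 6 arrays, which left 28254, and a gene was its brightest kept probe set (13262 genes). The group difference was fitted in R 4.3.3 by limma 3.58.1 (intensity trend, Benjamini-Hochberg adjustment), checked on simulated data. The number of arrays limits the precision. No coordinates are given, because no source names a build for the array.

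The members, the lists and the split by hybridization controls were chosen with earlier results of these data known. Named were all members, of each pathway list the 2 brightest genes and up to 4 further genes without overlap, of each marker list the 2 largest log2 fold changes and the brightest gene, and for the 2 members with the largest difference the 3 most correlated genes. The labels do not say whether same-numbered samples share a culture, so the numbers were not treated as pairs. Same-numbered samples' deviations from their group means correlated at 0.50, 0.22 and -0.05, and those of differently numbered samples at -0.46 to 0.31.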

Additional observations from a re-analysis of the deposited data

How the results depend on the processing

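The fit of the group alone called 0 genes and 0 probe sets. limma called 2 genes with quantile normalization, 8 with a common median, 1 with a pseudocount of 1, 9 with 64, 1 without the intensity trend and 2 with the mean of a gene's probe sets. Blocking on the hybridization controls' side gave 9, on the array name 19, and 20 with the replicate block (fits in which the samples share only a number), and 21 and 19 probe sets with the array name and the replicate block. Leaving out 1 array gave 0 to 24 genes and 0 to 1 probe sets. Of these calls the enzymes held Haao with the array name block and Arg2 without Ly6G- DC 1, given as counts since both were chosen with this difference known. Enzymes without overlap were 2 with quantile normalization, 2 with a common median and 2 with the mean of probe sets, of 9, where 12.0%, 13.8% and 13.2% of all genes did not overlap. They were 1 to 3 without 1 array, where 16.4% to 35.7% of all genes did not overlap, so the counts lie near the background. Haao is among them by construction, since groups apart on 6 arrays stay apart on 5. The enzymes' median log2 fold change was 0.31 with a common median, -0.41 within the low side, 0.49 within the high side, 0.23 within the array name of the other numbers and -0.16 to 0.14 without 1 array. Arg1, Arg2 and Haao had 1 sign in all 20 alternatives each. The filter choices, the array name block and the replicate block left these 3 values unchanged, so they are no check of the sign. For Haao the values without 1 array and within subsets keep their sign by construction. Kmo changed sign in 7, Kynu and Il4i1 in 5, Ido1 and Odc1 in 3 and Ass1 in 1. The within-side and within-name values were added after seeing the data. The cause of these changes was not tested. Dim probe sets (Nos2, the second Kynu set, Ido1, Il4i1) lie near or under the 40th percentiles, where MAS5 signals limit what can be said. The dimmest Odc1 set was under it on Ly6G- DC 2, and both Arg2 sets were on Ly6G- DC 3.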
